A study of Mus musculus with 4 samples.

Results

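Peribronchial fibroblasts and myofibroblasts are stromal cells of the conducting airway wall, and 271 of the 68675 kept cell barcodes (0.395%) from lungs of aged mice, pooled over 4 single-cell RNA sequencing libraries, were chosen by the UMIs of marker genes. Kept barcodes had 500 or more detected genes, 1000 or more UMIs (unique molecular identifiers, each counting 1 captured RNA molecule) and a mitochondrial share of UMIs no higher than 10%. A member carried at least 1 UMI of at least 3 of the 5 genes Hhip, Lgr6, Aspn, Cdh4 and Fgf18. It carried no UMI of Ptprc (leukocytes), Cdh5 (endothelium), Pi16 (adventitial fibroblasts) or Cox4i2 (pericytes), and at most 1 UMI of Des, the gene of desmin. These 10 genes chose the members, so their levels are given only as a description. No doublet caller was run, and in the main gate the genes required to be at 0 were the only safeguard against mixed droplets. Alternatives described below left out further members.

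The lungs came from male C57BL/6 mice that were 19 months old when dosing began. The BPTES group (2 libraries) received BPTES, a small-molecule inhibitor of glutaminase, and the DMSO group (2 libraries) received the vehicle, each for 1 month. Both groups are aged, and no young or undosed lung is among them. Lungs were digested with Liberase, and sorted cells without and with surface CD45 were combined in the fixed numbers of 20000 and 9000 per library, so a share of cells describes the mixture and not the organ. The labels do not say whether 1 library is 1 mouse or a pool, and p-values measure the spread between libraries only.

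Peribronchial fibroblasts lie beneath the airway epithelium, next to the smooth muscle bundles that narrow the airway. They take part in signalling between epithelium and stroma: Hhip binds hedgehog ligands and dampens the pathway, Lgr6 is a receptor for R-spondins, which strengthen Wnt signals, and Fgf18 is a secreted growth factor. Myofibroblasts are fibroblasts that also make contractile proteins such as smooth muscle actin (Acta2), and they are known for building elastic fibres and collagen in development and scarring. Glutaminase turns glutamine into glutamate, which feeds the citric acid cycle and the synthesis of proline, an abundant amino acid of collagen.

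The members numbered 46 and 74 in BPTES replicates 1 and 2 and 74 and 77 in DMSO replicates 1 and 2. Their median depth was 14288, 14649, 13388.5 and 14348 UMIs per cell in the same order, and the summed counts came to 668617, 1256412, 1177644 and 1202788 UMIs. BPTES replicate 1 thus had the fewest members and the smallest sum. The 4 libraries held 260346570 to 342107092 UMIs over all barcodes, and between 91.0% and 93.5% of barcodes were kept. Pairs of libraries shared 65 to 104 cell barcode sequences, at most 0.642% of the smaller library.

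Of the members, 123 (45.4%) carried all 5 marker genes, 78 (28.8%) carried 4 and 70 (25.8%) carried exactly 3. Members with all 5 had 6847 CPM (counts per 1000000 UMIs, over summed cells) of Hhip and 2885 CPM of Aspn. Those with exactly 3 had 831 CPM and 360 CPM, and the 325 barcodes just outside the rule, with 2 of the genes, had 191 CPM and 167 CPM. These levels follow from the sorting by marker genes. Inmt, which the rule did not use, is a methyltransferase gene of alveolar fibroblasts and stood at 101 CPM with all 5 markers, 3035 CPM with 3 and 3623 CPM with 2.

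A subset of 36 members (13.3%) also held a UMI of at least 3 of Npnt, Ces1d, Slc7a10, Scube2 and Tcf21, the genes used here to gate alveolar fibroblasts. The BPTES libraries held 8 and 9 of them, and the DMSO libraries 7 and 12. Pdgfra, the receptor for platelet-derived growth factor of alveolar fibroblasts, was at 511 CPM in these 36 cells and at 74.6 CPM in the other 235 members, while Hhip was at 906 CPM and 5752 CPM. Their median depth, between 20217.5 and 37783 UMIs in the 4 libraries, was above that of the other members, between 12913 and 14357. Results on Pdgfra, Npnt and related genes below rest partly on these cells.

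The limit on Des drew the other edge. Without it, 670 barcodes met the rule, and 399 of them (59.6%) had more than 1 Des UMI. Those 399 barcodes had 5354 CPM of Hhip and 3319 CPM of Aspn, against 4513 CPM and 1922 CPM in the members. They also had 1763 CPM of Acta2 against 278 CPM, and 898 CPM of Myh11, smooth muscle myosin, against 104 CPM. Conversely, 62.8% to 83.3% of the barcodes in a smooth muscle gate (at least 2 Des UMIs and at least 2 of Actg2, Cnn1, Myh11 and Lmod1) carried 3 or more of the 5 member genes. The 5 marker genes thus did not separate the members from smooth muscle cells in these data, and the Des limit cut through a continuous range, with 127 of the 271 members at exactly 1 Des UMI and 99 barcodes just outside at 2.

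For the description of the class, the members were set beside 4 other stromal gates: 7228 alveolar fibroblasts, 716 adventitial fibroblasts, 310 smooth muscle cells and 81 pericytes. No test was made of these differences, because the gate itself selects them. Levels are means ± SD over the 4 libraries of CPM in summed cells. Lgr5, a receptor for R-spondins, was at 674 ± 138 CPM in members, 441 ± 184 in the smooth muscle gate, 21.4 ± 3.77 in the adventitial gate and 0.699 ± 0.626 in the alveolar gate. After each cell was thinned to 3000 UMIs to equalise depth, 60.1% of members had an Lgr5 UMI, against 38.4% of the smooth muscle gate, 0.179% of the alveolar gate and 0.439% of Ptprc-positive cells, which serve as the background from free RNA. Without thinning, the share in members was 75.3%.

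Wif1, which binds and blocks Wnt ligands, was at 127 CPM in members, 43.7 in the smooth muscle gate, 3.01 in the adventitial gate and 0.776 in the alveolar gate. It varied widely between libraries, at 22.4 and 153 CPM with BPTES and 50.9 and 281 CPM with DMSO. Wnt5a, a ligand of the non-canonical Wnt branch, was at 137 CPM in members, 167 in the smooth muscle gate and 13.3 in the alveolar gate, and Pdgfc, a ligand of Pdgfra, at 100.3, 89.5 and 1.88 CPM in the same order. Pdgfra itself was at 175 CPM in members against 1267 in the alveolar gate and 572 in the adventitial gate.

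Among matrix genes, Dcn (decorin) was at 2688 ± 504 CPM in members, 234 in the alveolar gate and 10310 in the adventitial gate. Lum (lumican) was at 783 CPM in members, 4.72 in the alveolar gate and 373 in the adventitial gate. Igfbp5 and Igfbp3, which bind insulin-like growth factors, were at 1220 and 1524 CPM in members and 25.2 and 331 CPM in the alveolar gate. Fn1 (fibronectin) was at 13.5 and 111 CPM in members with BPTES and 7.64 and 137 CPM with DMSO, and at a mean of 1223 CPM in the alveolar gate. Eln (elastin) was at 603 CPM in members and 897 in the alveolar gate, with 614 in the smooth muscle gate.

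**Figure D1:**
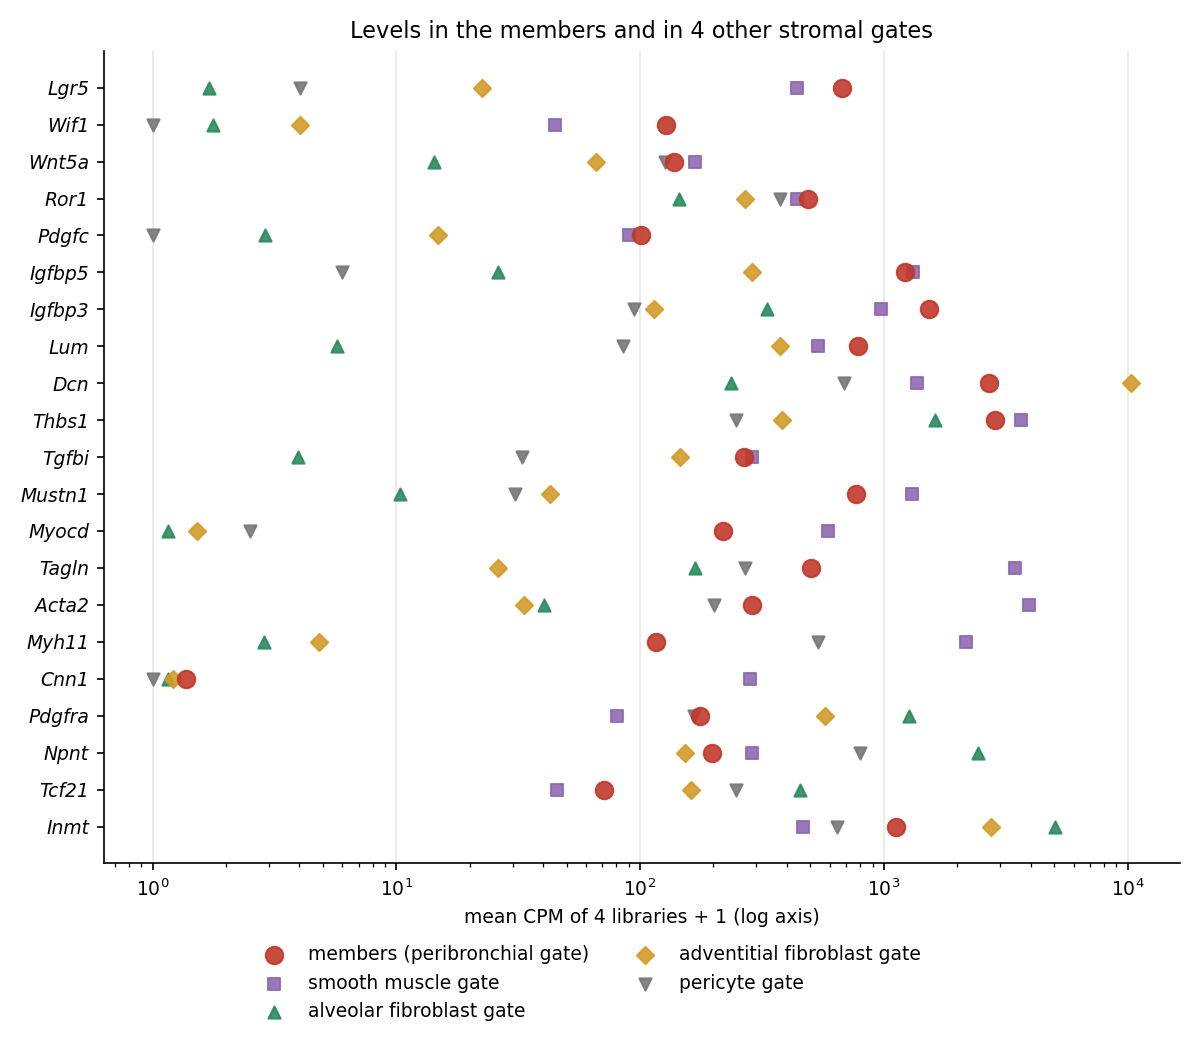
Each row is a gene and each symbol its mean level over 4 libraries in 1 stromal gate, in CPM plus 1 on a log axis. The members lie near the smooth muscle gate for Lgr5, Igfbp5 and Tgfbi, and below it for Acta2, Myh11 and Cnn1, while Pdgfra, Npnt, Tcf21 and Inmt lie below the alveolar fibroblast gate.

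Contractile genes were present in the members at levels well under those of the smooth muscle gate. The Des limit and the marker genes of that gate, among them Myh11 and Cnn1, help to fix this difference. Acta2 was at 288 CPM in members, 3950 in the smooth muscle gate, 39.4 in the alveolar gate and 32.4 in the adventitial gate. Myh11 was at 115, 2170, 1.86 and 3.80 CPM in the same order. Cnn1 (calponin) had 1 UMI in all 271 members and was at 282 CPM in the smooth muscle gate. Myocd, the transcriptional coactivator of smooth muscle genes, was at 218 CPM in members, 587 in the smooth muscle gate and 0.162 in the alveolar gate, and Mustn1 stood at 768, 1304 and 9.40 CPM.

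By a rule fixed on size, 20 genes outside the gate had the highest ratio of member level to the highest other stromal gate, among 3717 genes with at least 50 CPM in members. The ratios ran from 1.58 (Cadps2) to 12.5 (Myoc), and for 17 of the 20 the smooth muscle gate was the next highest. That gate could hold any number of the member genes, while the other gates allowed at most 1, which bears on this order. Myoc (myocilin) rested on 1 library: it was at 2.99 and 0 CPM with BPTES and 0 and 456 CPM with DMSO, and 75% of the UMIs of DMSO replicate 2 came from 2 cells. Cacna1e, a voltage-gated calcium channel subunit, was at 235 ± 9.83 CPM in members, 144 in the smooth muscle gate and 0.381 in the alveolar gate. Chrm3, the muscarinic receptor through which acetylcholine contracts airway muscle, was at 101 CPM in members, 61.6 in the smooth muscle gate and 12.6 in the alveolar gate. Rbfox1, a splicing regulator of neurons and muscle, was at 375, 213 and 6.17 CPM, and Ptprt, a receptor phosphatase, at 209, 112 and 19.7 CPM in the same order.

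Markers of other stromal cells were present in the members. The 6 alveolar fibroblast markers outside the gate summed to 1186 and 1534 CPM with BPTES and 1903 and 1798 CPM with DMSO, lower in both BPTES libraries. In the alveolar gate itself they summed to 8689 to 9810 CPM, a level largely fixed by that gate, which 5 of the 6 define. The 5 adventitial fibroblast markers came to 520 to 728 CPM and the 6 smooth muscle markers to 213 to 474 CPM in members, with overlapping groups. None of these markers was at 0. Summed over 5 markers in each case, endothelial genes came to 29.7 to 41.6 CPM in the 4 libraries, leukocyte genes to 39.9 to 242 CPM and mesothelial genes to 0 to 2.55 CPM. The 5 alveolar type 2 genes, among them Sftpc (surfactant protein C), came to 328 and 1319 CPM with BPTES and 73.0 and 13334 CPM with DMSO. In DMSO replicate 2, 79.1% of Sftpc UMIs came from 2 cells, and 1 cell held 5743 of them. A UMI of Sftpc was about as frequent in members as in leukocytes, at 40.3% of thinned members and 39.2% of thinned Ptprc-positive cells. The 4 members with at least 20 Sftpc UMIs (0 and 1 with BPTES, 0 and 3 with DMSO) were left out in an added alternative. Schwann cell genes came to 127 to 267 CPM, with 3 of the 5 markers at 0, and chondrocyte genes to 0, 3.18, 1.70 and 82.3 CPM.

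The first comparison between BPTES and DMSO was the abundance of the class among barcodes without a Ptprc UMI. The share was 0.433% (95% Clopper-Pearson interval 0.317% to 0.578%) and 0.712% (0.560% to 0.893%) with BPTES, and 0.758% (0.595% to 0.9504%) and 0.609% (0.481% to 0.760%) with DMSO. BPTES replicate 1 was the low value, and BPTES replicate 2 lay between the DMSO libraries. The means were 0.573% ± 0.197 and 0.683% ± 0.106 (SD, n = 2 each; two-sided exact permutation p = 0.667, where 0.333 is the smallest value that 2 libraries against 2 can give). Without BPTES replicate 1 the difference changed sign, from -0.110 to 0.0291 percentage points. No difference in abundance was detectable. The intervals cover counting error only. With each cell thinned to 3000 UMIs before the gate, the shares were 1.10% and 1.49% with BPTES and 1.61% and 1.31% with DMSO. Thinning also removed UMIs of Des and of the genes required to be at 0, so barcodes that the main gate leaves out could enter. The thinned gate held 114 and 155 barcodes with BPTES and 154 and 164 with DMSO. These shares are thus not of the same class at equal depth.

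The second was the share of contractile members, those with a UMI of at least 2 of Acta2, Myh11, Actg2 and Cnn1 after thinning to 3000 UMIs. This is a range of a continuous score and not a cell type: 88 members sat 1 gene below the threshold and 32 just at it. The Des limit had already left out barcodes with more contractile RNA (Acta2 at 1763 CPM, against 278 CPM in members). The share thus covers only the lower part of that range, and it was not computed without the limit. The shares were 20% (9.58% to 34.6%) and 12.5% (5.88% to 22.4%) with BPTES, and 18.1% (9.98% to 28.9%) and 13.5% (6.68% to 23.5%) with DMSO. The groups overlapped, at means of 16.3% ± 5.30 and 15.8% ± 3.21 (SD, n = 2 each; two-sided exact permutation p = 1). The same score was reached by 0.152% to 0.417% of Ptprc-positive cells, 0.0548% to 0.131% of the alveolar gate and 65.4% to 79.2% of the smooth muscle gate. The smooth muscle gate itself requires at least 2 of Actg2, Cnn1, Myh11 and Lmod1, so its share was largely fixed in advance. The sign of this small difference turned without BPTES replicate 1 (-3.28 percentage points) and without DMSO replicate 2 (-1.81). Without thinning, the shares were 47.8% and 29.7% with BPTES and 37.8% and 38.96% with DMSO.

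**Figure D2:**
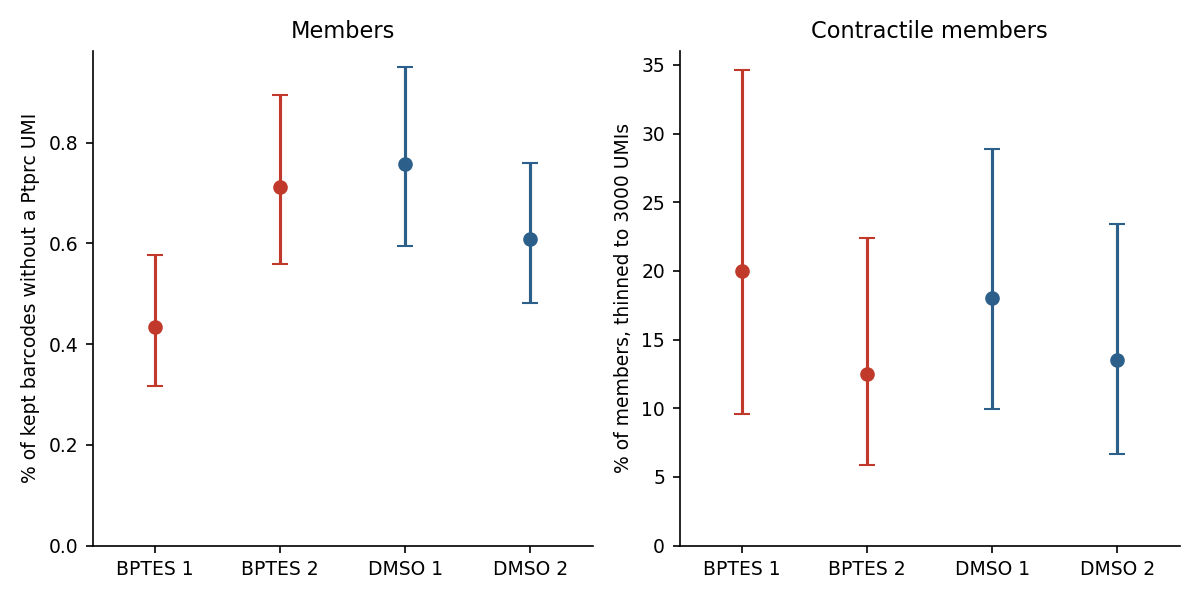
Each point is 1 library, with its 95% Clopper-Pearson interval as the bar. The left panel gives members as a percentage of kept barcodes without a Ptprc UMI (0.433% to 0.758%), and the right panel gives contractile members as a percentage of members (12.5% to 20%); BPTES and DMSO libraries overlap in both.

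The third comparison was gene expression. UMIs were summed over the members of each library and edgeR's quasi-likelihood test was run on 9805 genes. At an adjusted p under 0.05, 0 genes were called (0% of those tested), 673 (6.86%) had an unadjusted p under 0.05 (305 higher and 368 lower with BPTES), and 3607 (36.8%) had groups that did not overlap, with both BPTES values above or both below both DMSO values. DESeq2, run as an alternative, called 1 gene and had 197 at an unadjusted p under 0.05. Leaving out 1 library gave between 11 and 20 calls: 11 without BPTES replicate 1, 20 without BPTES replicate 2, 19 without DMSO replicate 1 and 13 without DMSO replicate 2. Counts were also simulated at the same library sizes, with a dispersion set at 0.05 for every gene and changes placed only in genes above a minimum count. Of the changed genes tested, 162 of 190 (85.3%) were recovered at 4-fold and 7 of 195 (3.59%) at 2-fold, with 12 and 1 false calls. Most 2-fold changes were thus not called in that setting. The dispersion was not taken from the data, so these shares are only a guide for these libraries. The genes below are therefore given by their values, and none passed the test over all genes.

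Adra1a, a noradrenaline receptor whose signalling contracts smooth muscle (chr14:66635251-66771168, mm10, plus strand), had the smallest p-value. Its level was 64.5 and 74.8 CPM with BPTES and 251 and 240 CPM with DMSO, so both BPTES libraries lay far below both DMSO libraries. The log2 fold change was -1.81 (SE 0.191, adjusted p = 0.0996). DESeq2 called it (log2 fold change -1.80, adjusted p = 0.000347), and it was the gene called by that tool. It kept its direction in all 18 alternatives, with adjusted p-values between 0.000347 and 0.849. The weakest was the fit of members with no Des UMI (-0.58, adjusted p = 0.849). Adra1a was not called when the mitochondrial limit, the number of marker genes or the Des limit was changed. Nor was it called with RLE factors or without the filter on low counts. The alternatives include the fits without 1 library and the replicate block. The naming rule requires groups that do not overlap, which largely fixed the direction in fits of the same sums. The share of thinned members with an Adra1a UMI was 15.6% and 15.3% with BPTES and 33.3% and 40.5% with DMSO.

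Adra1a is also a gene of alveolar fibroblasts, at 535 ± 178 CPM in their gate and 145 ± 89.4 CPM in the smooth muscle gate. In those gates the log2 difference between BPTES and DMSO means was -0.70 and -1.32. The test of a different effect in members gave -1.11 against the alveolar gate (adjusted p = 0.798) and -0.52 against the smooth muscle gate (adjusted p = 0.963), so a difference between the classes was not shown. Leaving out the 36 members with alveolar fibroblast genes left the value in members at -1.56 (adjusted p = 0.447). The summed alveolar fibroblast markers were also lower in members of both BPTES libraries (1186 and 1534 against 1903 and 1798 CPM). Their part in the Adra1a values was not tested. In DMSO replicate 1, 38.7% of Adra1a UMIs came from 2 cells. Without the 2 richest members of each library, a setting added after the data were seen, the log2 fold change was -1.56 (adjusted p = 0.0467).

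The other genes with the smallest p-values among those lower with BPTES were Dlg2, Gm44626, Gabra3, Greb1l, Gpr39, Irf1, Trp53inp1, Rrad and Mgmt, with adjusted p-values between 0.437 and 0.598. Dlg2, a scaffold protein of cell junctions and synapses, was at 40.5 and 38.6 CPM with BPTES and 102 and 111 CPM with DMSO (log2 fold change -1.43, SE 0.215). Gabra3, a subunit of the receptor for GABA, was at 13.5 and 19.3 CPM with BPTES and 63.3 and 49.5 CPM with DMSO (-1.73, SE 0.307). The groups of both genes lay apart, but in the libraries with few counts a pair of cells carried much of the sum: 55.6% of Dlg2 UMIs and all Gabra3 UMIs in BPTES replicate 1. The value of Gabra3 was -0.12 with no limit on Des and -0.64 without the 36 members holding alveolar fibroblast genes, and that of Dlg2 was -0.83 with at least 4 of the 5 marker genes. Greb1l, needed for kidney and inner ear development, was at 18.0 and 25.7 CPM with BPTES and 59.9 and 76.7 CPM with DMSO. Gpr39, a zinc-sensing receptor, was at 7.50 and 16.1 against 48.9 and 50.3 CPM, with 58.6% to 95% of its UMIs in 2 cells of each library. The direction of Rrad, a small GTPase that restrains calcium channels (7.50 and 10.5 against 57.4 and 28.9 CPM), turned when the limit on Des was dropped (0.01).

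Among genes higher with BPTES, the 10 with the smallest p-values were Fosl1, Nr6a1, Hsph1, Tcf7l2, Egln3, Prim2, Sh3pxd2b, Dgkg, Tbcd and Nmt2, with adjusted p-values between 0.437 and 0.598. Tcf7l2, a transcription factor at the end of the Wnt pathway, was at 396 and 418 CPM with BPTES and 189.9 and 216 CPM with DMSO (log2 fold change 1.00, SE 0.174). Its counts were spread over many cells, with at most 31.9% of UMIs in 2 cells of any library, and its direction held in 18 of 18 alternatives. The naming rule, which requires groups that do not overlap, largely fixed that direction in many of these fits. Hsph1, a heat shock chaperone, was at 40.5 and 66.0 CPM with BPTES and 15.2 and 10.7 CPM with DMSO (2.06, SE 0.356). Nr6a1, an orphan nuclear receptor, was at 88.5 and 126 against 36.3 and 41.3 CPM (1.48, SE 0.250). Fosl1, a subunit of the transcription factor AP-1, was at 51.0 and 31.4 against 5.91 and 4.13 CPM, but all of its UMIs in BPTES replicate 1 came from 2 cells. Nmt2, which attaches a fatty acid to proteins, had a log2 fold change of 1.30 and turned to -0.10 when members holding 2 or more genes of other lineages were left out. That setting left out 186 of the 271 members. It kept 10 and 16 in BPTES replicates 1 and 2 and 42 and 17 in DMSO replicates 1 and 2.

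**Figure D3:**
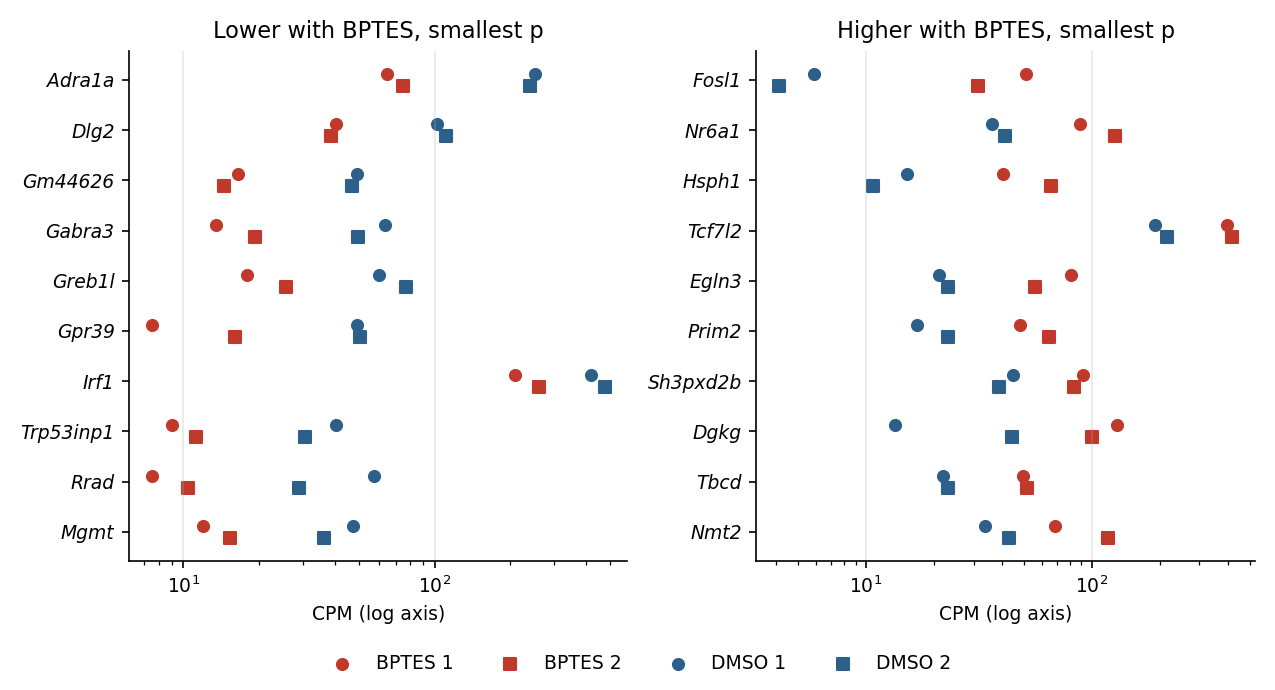
Each row is 1 of the 10 genes with the smallest p-values in each direction, each point the level in members of 1 library in CPM on a log axis (circles replicate 1, squares replicate 2). In every row the BPTES and DMSO points lie apart, as the rule for naming these genes requires, and none passed the adjusted threshold.

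Pde10a, a phosphodiesterase that breaks down the cyclic nucleotides that relax smooth muscle, was among the 20 genes named for their level in the class (chr17:8525372-8986648, mm10, plus strand). Its level was 3194 and 3128 CPM with BPTES and 593 and 1524 CPM with DMSO, and the groups did not overlap. The log2 fold change was 1.58 (SE 0.380, adjusted p = 0.598). The DMSO libraries differed from each other, and without DMSO replicate 2 the value was 2.42 (adjusted p = 0.0183). Of thinned members, 86.7% and 86.1% had a Pde10a UMI with BPTES and 65.3% and 70.3% with DMSO. The smooth muscle gate of the same libraries had a log2 difference of 1.47, and the test of a different effect in members gave 0.00 (SE 0.242, adjusted p = 1). In the alveolar gate, where Pde10a was at a mean of 16.2 CPM, the log2 difference was 0.67. There edgeR's test of a different effect in members gave 1.05 (SE 0.363, adjusted p = 0.798).

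The contractile list had 19 genes tested, with 0 called, a median log2 fold change of -0.08 and 36.8% not overlapping between groups, the same share as over all genes. Over all genes the median was -0.01. Tagln, an actin-binding protein of smooth muscle, was at 795 and 461 CPM with BPTES and 439.7 and 320.2 CPM with DMSO (log2 fold change 0.72, adjusted p = 0.707). Mustn1 was at 1179 and 685 against 647 and 562 CPM. Myocd pointed the other way, at 205 and 107 CPM with BPTES and 296 and 262 CPM with DMSO (-0.86, adjusted p = 0.706). Tagln and Myocd each turned in 1 of 18 alternatives. Tagln turned to -0.11 without members holding 2 or more of 15 genes of other lineages, and Myocd to 0.03 with no limit on Des. The first of these, called the other-lineage setting below, left out 186 of the 271 members, unevenly between libraries. It does not tell mixed droplets from free RNA. Acta2 was at 361 and 232 against 305 and 254 CPM and Myh11 at 202 and 70.0 against 97.0 and 92.4 CPM, and the groups of both overlapped. BPTES replicate 1 was the highest library for Tagln, Mustn1, Acta2 and Myh11.

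The hedgehog list, of interest because Hhip defines the class, had 11 genes tested, 0 called, a median of -0.17 and 3 genes not overlapping in each direction (54.5%, against 36.8% of all genes). Gli1, a transcription factor that is itself a target of the pathway, was at 24.0 and 25.7 CPM with BPTES and 12.7 and 11.6 CPM with DMSO (log2 fold change 1.04, SE 0.351, adjusted p = 0.706). Ptch1, the hedgehog receptor and also a target, showed no such pattern, at 103 and 45.1 against 130.0 and 77.6 CPM. Boc and Cdon, co-receptors, were lower in both BPTES libraries, Boc at 121 and 119.9 against 169 and 162 CPM and Cdon at 16.5 and 9.66 against 32.9 and 23.1 CPM. Neither passed the test.

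The Wnt list had 23 genes tested, 0 called, 3 not overlapping higher and 9 lower (52.2%, against 36.8% of all genes), and a median of -0.03. Ror1, a receptor for Wnt5a, was at 588 and 533 CPM with BPTES and 408 and 415 CPM with DMSO (log2 fold change 0.44, adjusted p = 0.706). Notum, an enzyme that inactivates Wnt ligands, was at 34.5 and 38.6 against 66.7 and 53.6 CPM (-0.71, adjusted p = 0.706), and its value was -0.08 in members with no Des UMI. Lgr5, at 749.9 and 609.9 against 516 and 819 CPM, and Wnt5a, at 175 and 114 against 130.0 and 126 CPM, overlapped between groups. Rspo3, a ligand of the Lgr receptors, was at 6.00 and 2.41 against 11.8 and 41.3 CPM, with at least 70% of its UMIs in 2 cells in every library.

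Of 10 FGF genes tested, 0 were called and 2 did not overlap between groups (20%, against 36.8% of all genes): Fgf7, a growth factor for epithelium, was at 78.0 and 78.1 CPM with BPTES and 154 and 118 CPM with DMSO (log2 fold change -0.80, adjusted p = 0.598), and Fgf2 was at 138 and 135 against 56.5 and 91.6 CPM (0.88, adjusted p = 0.665). Fgf10, at 147 and 78.9 against 128 and 138 CPM, overlapped. All 5 PDGF genes tested had fold changes below 0, between -0.51 and -0.09, 0 were called and 2 did not overlap (40%, against 36.8% of all genes). Pdgfra kept that sign in 15 of 18 alternatives, Pdgfa in 16 of 17, Pdgfrb in 17 of 18, and Pdgfc and Pdgfd in all 18. Pdgfc was at 76.5 and 90.1 against 108 and 126 CPM, while Pdgfra ranged from 93.0 to 237 CPM with BPTES and from 163 to 210.1 CPM with DMSO. In BPTES replicate 1, 64.5% of Pdgfra UMIs came from 2 cells.

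Of 32 TGF-beta and BMP genes tested, 0 were called, 8 were higher and 4 lower in both BPTES libraries (37.5%, close to the 36.8% of all genes), and the median was 0.00. Ltbp2, which binds elastic microfibrils, was at 72.0 and 71.6 CPM with BPTES and 10.1 and 30.5 CPM with DMSO (log2 fold change 1.81, adjusted p = 0.598), with 58.3% to 76.4% of UMIs in 2 cells of each library. Its value was 0.07 without the 36 members holding alveolar fibroblast genes. Cyr61, a matricellular target of TGF-beta and mechanical stretch, was at 553 and 644 against 878 and 763 CPM (-0.45, adjusted p = 0.707). Id3 overlapped between groups.

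The 31 collagen and proteoglycan genes tested had a median of -0.16 with 2 higher and 6 lower without overlap (25.8%, against 36.8% of all genes), and 0 were called. Dcn was at 2280 and 2549.9 CPM with BPTES and 3401 and 2514 CPM with DMSO, and Thbs1 at 2578 and 2935 against 3062 and 2827 CPM. Ogn, a proteoglycan, was at 1572 and 1437 against 1859.9 and 1741 CPM (log2 fold change -0.26, adjusted p = 0.835). Its value turned to 0.32 in the other-lineage setting and 0.04 with no limit on Des. The 16 elastic fibre genes had a median of -0.05 and 0 calls, and Eln was at 532 and 702 against 625 and 554 CPM. Lox, which cross-links collagen and elastin, was at 25.5 and 45.1 against 71.7 and 56.1 CPM (-0.80, adjusted p = 0.707). The 15 basement membrane genes had a median of 0.12 and 0 calls, and Col4a6 was at 162 and 99.0 against 213 and 219 CPM (-0.74, adjusted p = 0.706).

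Of 24 matrix proteases and inhibitors tested, 0 were called and the median was -0.04. Adamts1, which cleaves proteoglycans such as versican, was at 1919.6 and 1313 CPM with BPTES and 1079 and 1174 CPM with DMSO (log2 fold change 0.52, adjusted p = 0.721), and Timp3, at 1279 and 1394 against 1457 and 1049.7 CPM, overlapped. Of the 7 IGF genes tested, 0 separated the groups (0%, against 36.8% of all genes): the median was 0.09, and Igfbp3 was at 1425 and 1518 against 1651 and 1501 CPM. Prrx1 and Osr1, transcription factors of fibroblasts, were lower in both BPTES libraries (log2 fold changes -1.07 and -1.09, adjusted p = 0.598 and 0.706), among 13 mesenchymal transcription factors with a median of -0.14 and 0 calls.

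Of the 19 gene lists, the interferon response list had the median furthest from that of all genes. Of its 25 genes tested, 0 were called, 10 had an unadjusted p under 0.05 and all of those were lower with BPTES (against 3.75% of all genes). There were 13 lower and 0 higher without overlap (52.0%, against 36.8% of all genes), and the median log2 fold change was -0.65. Irf1, a transcription factor induced by interferon, was at 210.0 and 259.9 CPM with BPTES and 421 and 476 CPM with DMSO (log2 fold change -0.93, SE 0.187, adjusted p = 0.598). Isg15, a ubiquitin-like protein, was at 19.5 and 9.66 against 36.3 and 47.9 CPM (-1.62, SE 0.386, adjusted p = 0.598). With no limit on Des the value of Isg15 turned to 0.21, and in the other-lineage setting that of Irf1 was -0.22. The genes of class I antigen presentation on the list differed little: B2m was at 972 and 902 against 1164 and 914 CPM, H2-K1 at 389.9 and 302 against 349 and 387 CPM, and H2-D1 at 426 and 449.8 against 486 and 476 CPM.

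In the fit with the alveolar fibroblast gate, the 30 interferon genes tested had a median log2 difference of -0.61 in members and 0.04 in alveolar fibroblasts. In the fit with the smooth muscle gate, the 27 genes tested had medians of -0.60 in members and -0.07 in smooth muscle. The test of a different effect called 0 of them in either fit, with 5 and 4 at an unadjusted p under 0.05, all lower in members (3.54% and 2.92% of all genes were lower at that p). The leukocyte markers in members, a sign of other cells or their RNA, summed to 44.9 and 72.4 CPM with BPTES and 39.9 and 242 CPM with DMSO, so 1 DMSO library stood above the rest. Their part in these values was not tested.

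**Figure D4:**
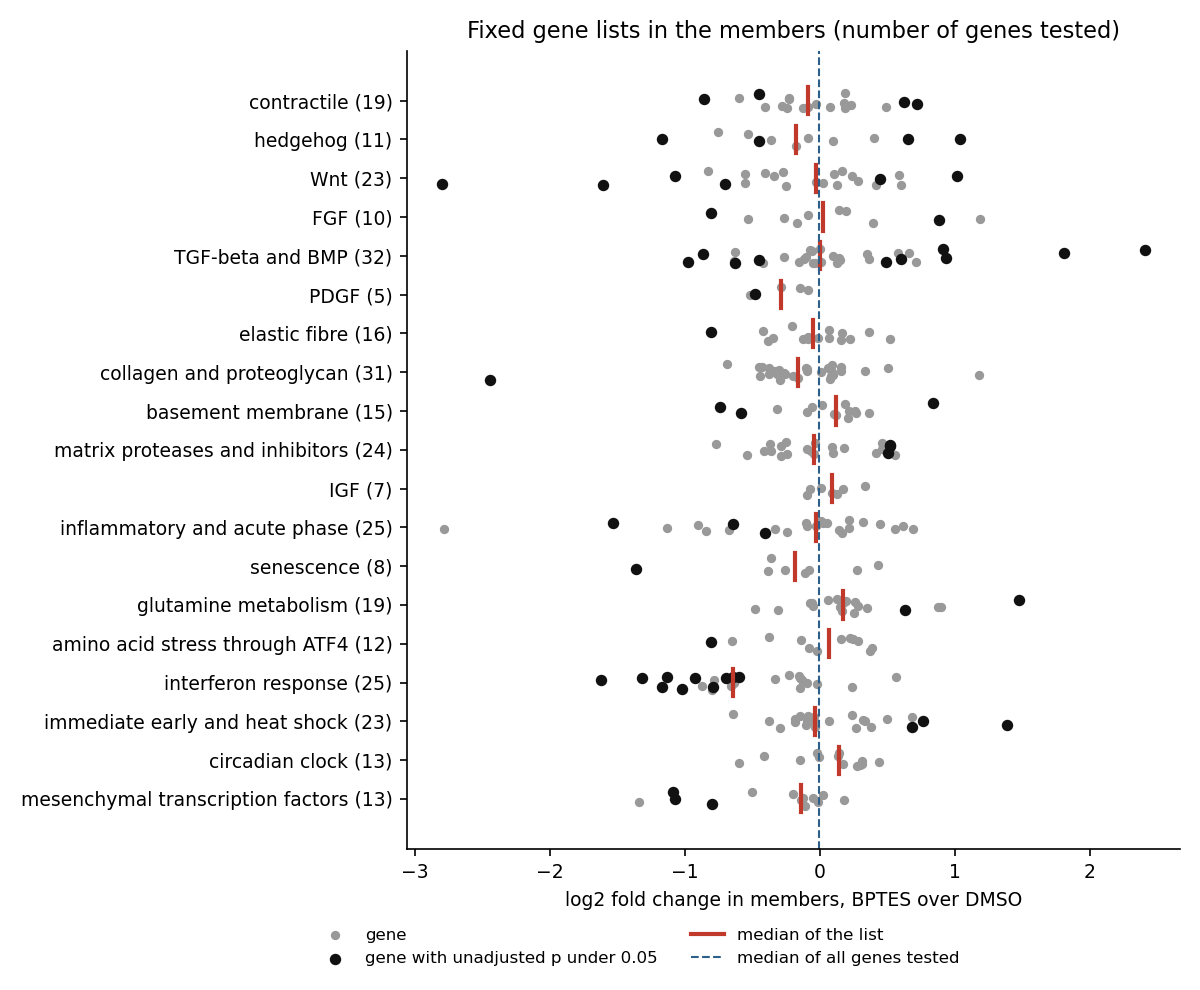
Each point is a gene, placed by its log2 fold change in members between BPTES and DMSO, with black points at an unadjusted p under 0.05, red bars for the median of the list and a dashed line for the median of all genes (-0.01). The interferon response list has the median farthest from that line (-0.65), and 0 genes on any list passed the adjusted threshold.

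Of the 19 glutamine metabolism genes tested, 0 were called, 8 were higher and 0 lower in both BPTES libraries (42.1%, against 36.8% of all genes), and the median was 0.17. Glul, glutamine synthetase, was at 196 and 291 CPM with BPTES and 322 and 286 CPM with DMSO and overlapped. Gfpt2, which uses glutamine to make amino sugars for proteoglycans, was at 217 and 336 against 176 and 184 CPM (log2 fold change 0.63, SE 0.229, adjusted p = 0.706). Its value turned to -0.42 in the other-lineage setting. Got1, an aspartate aminotransferase, was at 13.5 and 18.5 against 6.75 and 4.95 CPM (1.48, adjusted p = 0.706), and 0.60 with no limit on Des. Of 12 genes of amino acid stress through ATF4, 0 were called and the median was 0.07. Atf4 was at 181 and 167 against 145 and 124 CPM (0.37, adjusted p = 0.749).

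Among 23 immediate early and heat shock genes, 0 were called, and 6 were higher and 0 lower in both BPTES libraries (26.1%, against 36.8% of all genes). Dnaja1, a co-chaperone, was at 399 and 468 CPM with BPTES and 221 and 289.7 CPM with DMSO (log2 fold change 0.77, SE 0.199, adjusted p = 0.598), and Hspa1b at 33.0 and 86.9 against 28.7 and 19.0 CPM (1.39, adjusted p = 0.706). The value of Hspa1b was 0.28 with at least 4 of the 5 marker genes and 0.47 without BPTES replicate 2. The immediate early genes Fos (4262 and 2739.8 against 4176 and 3572 CPM), Junb and Egr1, which tissue digestion is known to induce, overlapped between groups. Hsph1 had a log2 difference of 2.20 in the smooth muscle gate of the same libraries and 1.10 in the alveolar gate.

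Of the 11 senescence genes on the list, 8 were tested and 0 called, with a median of -0.18. Cdkn2a, which encodes p16 and is a common marker of senescent cells, had 0 UMIs in 271 members. Taking 3 cells as the upper limit over the pooled members, a share of up to 1.11% with a UMI is allowed. This limits detection and not expression. Without thinning, a Cdkn2a UMI was in 0.152% of the alveolar gate, 0.323% of the smooth muscle gate and 1.12% of Ptprc-positive cells. Cdkn2b had 6 UMIs over the 4 libraries and Mki67, a gene of cycling cells, had 17. Cdkn1a, which encodes p21, was at 405 and 272 CPM with BPTES and 457 and 423 CPM with DMSO (log2 fold change -0.39, adjusted p = 0.783). Lmnb1, a lamin of the nuclear envelope, was at 6.00 and 6.44 against 21.9 and 10.7 CPM (-1.36, adjusted p = 0.713), and its value was -0.77 without DMSO replicate 1. Of 25 inflammatory and acute phase genes, 0 were called and the median was -0.03. Ccl2, a chemokine for monocytes, was at 22.5 and 12.9 against 53.2 and 44.6 CPM (-1.53, adjusted p = 0.598), with 62.5% or more of its UMIs in 2 cells of each library, and its value turned to 0.23 with no limit on Des. Of 13 circadian clock genes, 0 were called, with a median of 0.14.

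The last comparisons asked whether the effect of BPTES in members differed from that in related stroma of the same libraries. Against the alveolar fibroblast gate, 0 of 16008 genes were called by edgeR (0%), with 959 at an unadjusted p under 0.05. Against the smooth muscle gate, 1 of 10822 was called (0.00924%), with 571 at an unadjusted p under 0.05. That gene, Cxcl13, is set apart below because single cells carried its counts. Myocd had a log2 difference of -0.83 in members and 0.72 in the smooth muscle gate. The test of a different effect gave -1.65 (SE 0.371, adjusted p = 0.724), so a difference was not shown. The Des limit separates these classes, and with no limit on Des the value of Myocd was 0.03.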

How the data were processed

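The authors deposited raw UMI counts per gene and cell barcode in a separate matrix for each library. Per the file headers the matrices come from Cell Ranger 8.0.1, and the submitters' processing notes name build mm10. How Cell Ranger called cells is not given in the sources used here. Counts came from a 3' tag kit and were not scaled by gene length, and levels of different genes were ranked only to choose which to name.

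Barcodes were filtered and members gated by the rule stated at the opening. The members, gene lists and tests were chosen with earlier results of these data known. UMIs were summed per library over members. BPTES was compared with DMSO in edgeR 4.0.16 (R 4.3.3) with TMM factors, filterByExpr, glmQLFit and the two-sided glmQLFTest, with Benjamini-Hochberg adjustment over 9805 genes and an adjusted p under 0.05. Some of the genes named by the rule are not reported here. The 10 gate genes stayed in the library sizes and out of the test. CPM in this comparison are scaled by TMM library sizes, and CPM by gate are of the plain sums, so the same gene can differ slightly between them. Standard errors are approximate. Differences between classes were fitted on 8 sums with library, class and class by group as terms (2 residual degrees of freedom).

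The 2 libraries against 2 allow an exact permutation p of at least 0.333 for shares. Thinning drew 3000 UMIs per cell without replacement (seed 1), leaving out shallower cells (1 and 2 members with BPTES, 2 and 3 with DMSO). The gates used for comparison needed the same barcode filters, Ptprc and Cdh5 at 0, and their own marker genes. The alveolar, adventitial and pericyte gates also allowed at most 1 of the member genes and at most 1 Des UMI. The smooth muscle gate allowed any number of member genes. Genes were named by rule: the 10 smallest p-values in each direction among genes with a mean of at least 20 CPM and groups that did not overlap, the 3 highest levels and 2 smallest p-values per list, the senescence and PDGF lists, a few fixed genes, and the 20 genes with the highest ratio to other gates. Gene positions are from GENCODE M21 on the mm10 build, matched by gene identifier. The edgeR step was tested on simulated counts with 200 changed genes. Alternatives were DESeq2 1.42.0, RLE factors, no filter on low counts, the legacy quasi-likelihood fit, the replicate block, stricter or looser gates, removal of possible doublets, and each library left out. Python 3.11.15, numpy 2.4.6, scipy 1.17.1, pandas 2.3.3 and matplotlib 3.10.9 were used.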

Additional observations from a re-analysis of the deposited data

Results flagged for a closer look

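Cxcl13, a chemokine for B cells, was the 1 gene whose response to BPTES differed between members and the smooth muscle gate by edgeR's test of the difference (log2 difference 15.2, adjusted p = 0.0109). The BPTES members had 0 and 50 UMIs of it, the 50 from 1 cell, and the DMSO members had 1 and 2. The smooth muscle gate had none in either BPTES library or in DMSO replicate 2, and 779 in DMSO replicate 1, where 1 cell held 771. The test gave 0 calls without the filter on low counts and with at least 4 of the 5 marker genes required. Groups at or near 0 make this fitted value depend on the prior count, so it is no measure of size.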

How the results depend on the processing

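The count of genes called in members was 0. It became 1 with DESeq2, 2 without members holding 2 or more of 15 genes of other lineages (10, 16, 42 and 17 members left), 1 without members holding 20 Sftpc UMIs and 4 without the 2 richest members per gene, the last 2 settings being added after the data were seen. It stayed 0 in the 9 other alternatives that kept all 4 libraries and had no replicate term. Leaving out each library gave 11 to 20, for which the lone sample is assumed to vary like the other group. With the replicate block (the numbers in the titles as a pairing), 48 genes were called, 13 higher and 35 lower. With only 2 pairs, the deviations of same-numbered libraries correlated at 0.189. No label ties a number to a shared animal or day, so the calls of the block are given here only. The block is still among the 18 alternatives counted for single genes, here and above. The cause of these changes was not tested.

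The difference in the share of members (-0.110 percentage points) ranged from -0.250 to 0.0291 over the fits without 1 library and turned to 0.0291 without BPTES replicate 1. The difference in contractile members (0.465) ranged from -3.28 to 4.22 over the fits without 1 library. It turned to -3.28 without BPTES replicate 1, -1.81 without DMSO replicate 2, -2.98 with at least 3 of the 4 contractile genes (exact permutation p = 0.333), -1.44 with at least 4 of the 5 marker genes, and -1.70 without members holding alveolar fibroblast genes, a setting added after the data were seen. The count of genes whose effect differed from the smooth muscle gate, 1, became 0 without the filter on low counts and 0 with at least 4 of the 5 marker genes. Of 2382 values of 136 named genes under the 18 alternatives where each could be tested, 39 passed the threshold and 0 of those reversed. Of the 20 leading genes, 18 kept their sign in every alternative, with Rrad and Nmt2 the exceptions. These genes were chosen for groups that did not overlap. Their sign was thus largely fixed in the fits without 1 library and in other fits of the same sums. In counts simulated at the size of these libraries, with a set dispersion not taken from the data, 3.59% of 2-fold changes were recovered. Depth and the number of libraries were not varied there.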
